A study of Homo sapiens with 2 samples.

Results

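Genes of the proteasome were compared between the MHCC97H and MHCC97L libraries of the series. Members were taken by symbol from the protein-coding genes of the table, as PSMA to PSMG with a number, or POMP. The rule reads symbols and no measured value, but the set was taken up with earlier results of these data known. The rule found 49 of 44591 genes, namely 8 alpha subunits (PSMA), 8 beta subunits (PSMB), 3 immunoproteasome subunits (PSMB8, PSMB9 and PSMB10), 6 ATPases (PSMC), 14 non-ATPase genes (PSMD), 4 activators (PSME), the inhibitor PSMF1 and 5 assembly factors (PSMG1 to PSMG4 and POMP). MHCC97H and MHCC97L are established human hepatocellular carcinoma cell lines, sublines of the same parental line, whose labels give a spontaneous metastatic potential that is high for MHCC97H and low for MHCC97L. Both carry the genotype label WT, shared a culture medium, and have no treatment in their labels. Poly(A)-selected RNA gave 1 library of 28967153 counted reads for MHCC97H and 1 of 24964246 for MHCC97L. There are no replicates, so no difference below has a replicate check, no test between the lines exists, and every statement is about these 2 libraries. Intervals and limits cover counting error only. They may be too narrow even for that, since reads copied by PCR and not tagged with molecular identifiers are not independent.

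The proteasome degrades proteins that carry ubiquitin chains. Its 20S core is a barrel of outer alpha rings and inner beta rings, and PSMB5, PSMB6 and PSMB7 hold the cutting sites. The 19S regulatory particle caps the barrel, where PSMC ATPases unfold substrates and the PSMD lid and base bind and remove ubiquitin. In immune responses interferon induces PSMB8, PSMB9 and PSMB10, which replace the 3 cutting subunits and favour peptides for MHC class I. When proteasome activity is short, the transcription factor NRF1 (gene NFE2L1) raises proteasome genes together.

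Levels are CPM, read counts scaled to effective library sizes from the trimmed mean of M-values (TMM), and a log2 ratio is MHCC97H over MHCC97L with a 95% counting interval. Of the 49 members 47 reached 1 CPM in at least 1 library and were kept, among 14578 kept genes in all. PSMA8, an alpha subunit of the testis, and PSMB11, a beta subunit of the thymus, had 0 reads in both libraries. On total counts, without TMM, this allows up to 0.104 CPM in MHCC97H and 0.120 CPM in MHCC97L. Of 10 hepatocyte and hepatocellular carcinoma markers, KRT8 (8075 CPM against 9060 CPM) and SERPINA1 (5800 CPM against 8422 CPM) were abundant, each value for MHCC97H first. KRT18 (5275 CPM against 4870 CPM) was abundant too, and HNF4A (80.8 CPM against 96.6 CPM) and TTR (44.9 CPM against 70.4 CPM) were expressed. The defining liver products ALB (1.85 CPM in MHCC97H, 5.57 CPM in MHCC97L), AFP (0.390 and 0.978 CPM) and APOA1 (0.130 and 0.170 CPM) were low or near 0 in both. So were APOB (2.60 and 4.51 CPM) and APOA2 (0.325 and 0.723 CPM). The identity of the lines rests on their cell line labels, not on these markers. Of 8 leukocyte markers, CD3E and MS4A1 had 0 reads in both libraries and PTPRC had 1 read in MHCC97H and 0 in MHCC97L. The 8 together came to 15.7 CPM in MHCC97H and 12.5 CPM in MHCC97L, mostly from CD68 and CD14. Fibroblast markers summed to 20.2 CPM in MHCC97H and 25.98 CPM in MHCC97L, and 5 endothelial markers to 0.455 CPM and 0.595 CPM in that order. In such bulk samples fewer expressing cells and less RNA per cell cannot be told apart.

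Proteasome genes lay close to each other in the 2 libraries, with the regulatory particle toward MHCC97H and the beta rings toward MHCC97L. Reads of all members made up 0.714% of the MHCC97H library (exact Clopper-Pearson interval 0.711 to 0.717) and 0.625% of the MHCC97L library (0.622 to 0.628). These are shares of total counts. On TMM effective sizes the summed reads of the kept members had a log2 ratio of only 0.021 (0.012 to 0.031). The median log2 ratio of the 47 kept members was -0.0078, against 0.025 over all kept genes, and members ran from -0.51 for PSMB6 to 1.00 for PSMD12. No member met the 2-fold rule, a log2 ratio of at least 1 in size with an interval that excludes equal expression. Over all kept genes 7.06% met it on the higher side and 4.65% on the lower side. PSMD12 stopped just short of it at 1.997-fold. At 1.5-fold, 8 of the 47 members (17.0%) were higher in MHCC97H and none was lower, against 19.3% higher and 13.8% lower over all kept genes. The share of higher members was therefore near that of all genes, while no member stood on the lower side. Those 8 were PSMD12, PSMD14, PSMD1, PSMD5 and PSMD10, the ATPase genes PSMC6 and PSMC1, and the alpha gene PSMA3. The counting interval lay wholly above equal expression for 22 members, where 37.5% of all kept genes did so, and wholly below it for 20, where 35.3% did so. Plain total counts in place of TMM add 0.17 to every log2 ratio, which turns the sign of those between -0.17 and 0. Removing the trend with GC content and length, described further on, also turns some larger ones, such as PSMB2 (0.19 as measured, -0.22 after removal) and PSMB10 (-0.37 and 0.071).

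**Figure D1:**
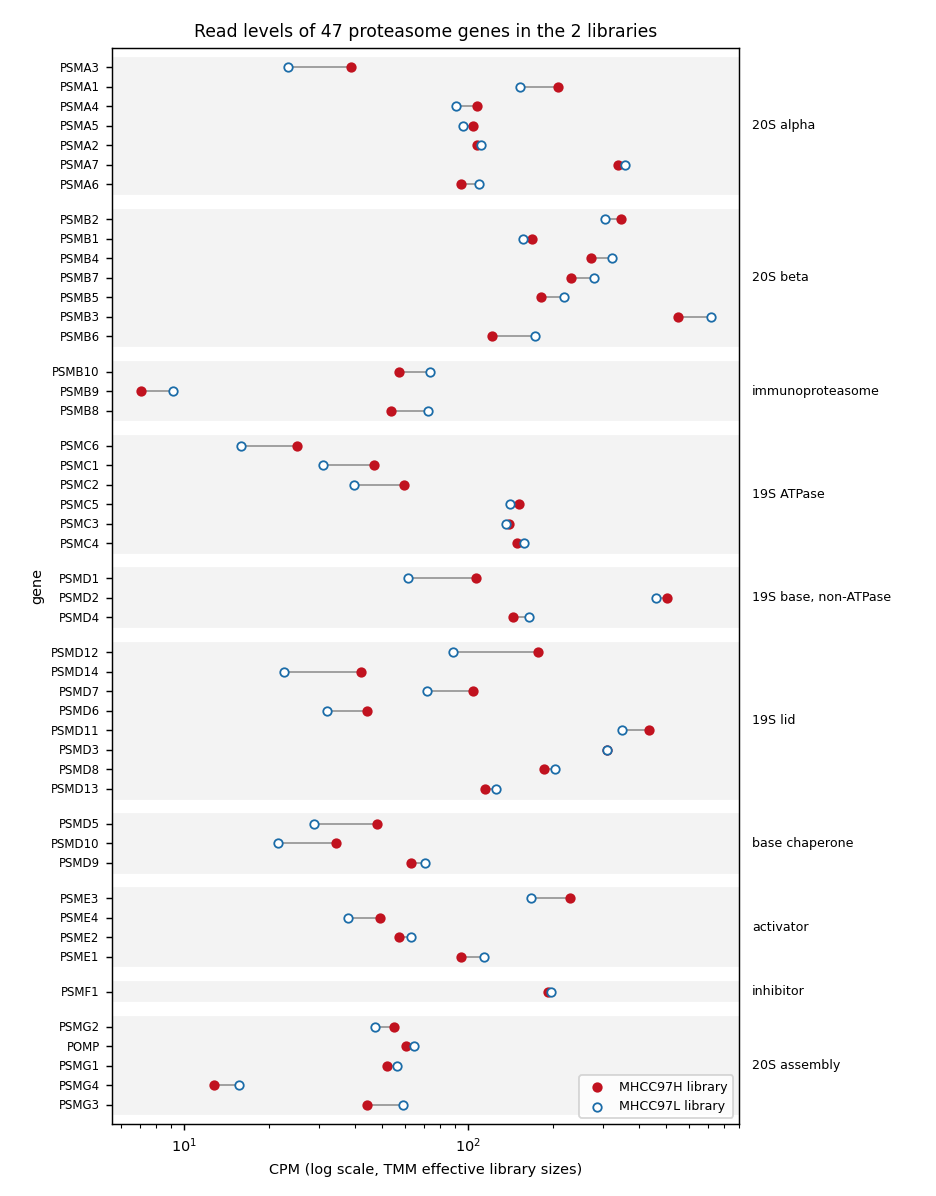
Level of each of the 47 kept proteasome genes in CPM on a log axis, as a filled point for the MHCC97H library and an open point for the MHCC97L library, grouped by part of the complex. The largest gaps are in the 19S lid and base (PSMD12, PSMD14, PSMD1), where the MHCC97H point lies to the right, while 5 of 7 beta genes and the 3 immunoproteasome genes have it to the left.

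The 19S lid held the highest ratios of the complex. PSMD12, a scaffold subunit of the lid, had 5452 reads (177 CPM) in MHCC97H and 2088 reads (88.8 CPM) in MHCC97L, a log2 ratio of 1.00 (95% counting interval 0.93 to 1.07). PSMD14, the deubiquitinase that cuts ubiquitin chains off a substrate as it enters, had 1297 reads (42.2 CPM) in MHCC97H and 530 reads (22.5 CPM) in MHCC97L, 1.87-fold (1.69 to 2.07). The other lid genes formed a graded series rather than 1 level. PSMD7, the partner of PSMD14, stood at 0.54, PSMD6 at 0.47 and PSMD11 at 0.31. PSMD3 was at -0.0078 with 309 CPM in MHCC97H and 310.5 CPM in MHCC97L, and PSMD8 and PSMD13 both stood at -0.13. Over the 8 lid genes the median was 0.39. The lid subunit SEM1, whose symbol the rule does not take, stood at -0.24 and is not among them.

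The base subunits and their chaperones also spread widely. PSMD1, a large scaffold of the base, had 3280 reads (106.7 CPM) in MHCC97H and 1452 reads (61.7 CPM) in MHCC97L, 1.73-fold (1.62 to 1.84). Its structural partner PSMD2, the most abundant 19S gene per kilobase of transcript, had 503 CPM in MHCC97H and 461 CPM in MHCC97L, a log2 ratio of 0.13. The ubiquitin receptor PSMD4 leaned the other way at -0.18. PSMD5, PSMD9 and PSMD10 are not parts of the finished particle but chaperones that help to assemble the base. PSMD5 had 1472 reads in MHCC97H and 676 in MHCC97L, 1.67-fold (1.52 to 1.83), and PSMD10, also known as gankyrin, had 1058 and 507 reads, 1.60-fold (1.43 to 1.78). PSMD9 stood at -0.17, so the 3 chaperones did not share a direction. A pseudogene of PSMD10, PSMD10P2, collected 67 reads in MHCC97H and 18 in MHCC97L, and reads could be split between the pair.

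The 6 ATPases form 1 ring with a single copy of each, yet their messenger RNAs fell into a pair of clusters. PSMC6 had 772 reads (25.1 CPM) in MHCC97H and 373 reads (15.9 CPM) in MHCC97L, a log2 ratio of 0.66 (0.48 to 0.85). PSMC1 (0.60, interval 0.47 to 0.73) and PSMC2 (0.58, interval 0.47 to 0.70) were close to it. PSMC5 (0.10), PSMC3 (0.042) and PSMC4 (-0.081) lay near equal expression. Per kilobase of transcript, PSMC6, PSMC1 and PSMC2 reached 15.8, 16.1 and 22.6 CPM in MHCC97H and 9.97, 10.6 and 15.1 CPM in MHCC97L. PSMC3, the lowest of the other 3 per kilobase, reached 95.5 CPM in MHCC97H and 92.7 CPM in MHCC97L. With the trend of all genes with GC content and length removed, described further on, these clusters were not kept, as PSMC2 stood at -0.16 and PSMC3 at 0.31. PSMC1 shares 82.1% of its annotated exon bases with NRDE2 on the opposite strand, which itself stood at 0.56, and the library kit named in the labels does not mark strand, so the value of PSMC1 is uncertain.

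As measured, alpha genes lay above beta genes in the core particle, an order that turned with the GC and length trend removed (medians of -0.19 for alpha and -0.054 for beta). Among alpha genes PSMA3 was highest, with 1193 reads (38.8 CPM) in MHCC97H and 547 reads (23.3 CPM) in MHCC97L, 1.67-fold (1.51 to 1.85), followed by PSMA1 at 208 CPM and 153 CPM (0.44). PSMA4 stood at 0.24 and PSMA5 at 0.11. PSMA2 (-0.042), PSMA7 (-0.077) and PSMA6 (-0.22) were at or below equality, and the alpha median was 0.11. Of 7 constitutive beta genes 5 were lower in MHCC97H, with a median of -0.26. PSMB6, which carries the caspase-like site, was the lowest member of all at 3734 reads (121 CPM) in MHCC97H and 4054 reads (172 CPM) in MHCC97L (-0.51, interval -0.57 to -0.44). PSMB3, a structural beta subunit and the most abundant member per kilobase of transcript, had 551 CPM in MHCC97H and 719.6 CPM in MHCC97L (-0.39, interval -0.42 to -0.35). PSMB5, the chymotrypsin-like subunit targeted by bortezomib, and PSMB7, the trypsin-like subunit, stood at -0.27 and -0.26. PSMB4 was at -0.24, while PSMB1 (0.11) and PSMB2 (0.19) leaned toward MHCC97H. All 3 cutting subunits were thus on the lower side as measured. With total counts PSMB5 stood at -0.10, PSMB6 at -0.33 and PSMB7 at -0.091. With the GC and length trend removed they lay near 0, at -0.054, -0.12 and -0.13 in that order. The standard deviation over all genes with a value was then 0.54. Exon bases shared with another annotated gene make some core values uncertain, at 63.9% for PSMA6, 52.5% for PSMA2 and 35.7% for PSMA1. In all 11 kept members shared at least 10%. The 38 proteasome pseudogenes of the table held 79 reads in MHCC97H and 33 in MHCC97L.

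Ratios within a library are free of any scaling between the libraries. Summed reads of the 17 regulatory-particle genes (6 ATPases, 3 base genes and 8 lid genes) were 84296 in MHCC97H and 56807 in MHCC97L. Those of the 14 constitutive core genes were 88400 in MHCC97H and 73270 in MHCC97L. The ratio of particle to core was 0.954 within MHCC97H and 0.775 within MHCC97L, which differ by a factor of 1.23 (Woolf counting interval 1.21 to 1.25). Leaving out any single gene kept this factor between 1.17 (without PSMB3) and 1.26 (without PSMB2). Reads of alpha over beta genes gave 0.534 and 0.435 in the same order, a factor of 1.23 (1.20 to 1.25), on reads as counted and with no trend removed. These sums were chosen after the values were seen, and abundant genes such as PSMB3, PSMD2 and PSMD11 weigh most in them. Medians over genes ran the same way, with 0.31 for the regulatory particle and -0.060 for the core. The particle is incomplete in these sums and medians, since the symbol rule leaves out SEM1 and the ubiquitin receptor ADRM1. SEM1 (1766 reads in MHCC97H, 1599 in MHCC97L) stood at -0.24 and ADRM1 (9202 and 8477 reads) at -0.27. Including them would lower the factor of particle to core.

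**Figure D2:**
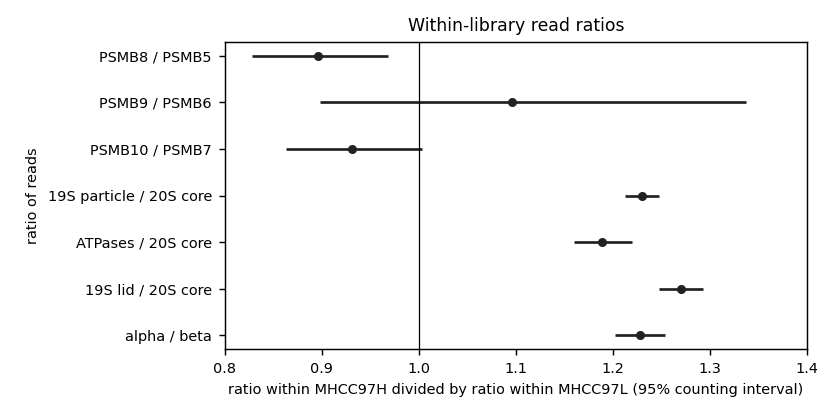
Each point is a ratio of reads within the MHCC97H library divided by the same ratio within the MHCC97L library, with its 95% counting interval, and a value of 1 means equal ratios. The 19S particle over the 20S core stands at 1.23 and alpha over beta at 1.23, while the 3 immunoproteasome pairs lie between 0.896 and 1.10.

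As measured, immunoproteasome genes were lower in MHCC97H by about as much as the subunits they replace. PSMB8 had 1653 reads (53.8 CPM) in MHCC97H and 1704 reads (72.4 CPM) in MHCC97L, a log2 ratio of -0.43 (-0.53 to -0.33). PSMB10 had 1762 reads (57.3 CPM) and 1737 reads (73.9 CPM) in the same order, -0.37 (-0.46 to -0.27). PSMB9 had the fewest reads of any kept member, at 217 reads (7.06 CPM) in MHCC97H and 215 reads (9.14 CPM) in MHCC97L, -0.37 (-0.65 to -0.094). Per transcript length, PSMB8 reached 0.266 of PSMB5 in MHCC97H and 0.297 in MHCC97L. PSMB10 reached 0.199 of PSMB7 in MHCC97H and 0.214 in MHCC97L. PSMB9 reached 0.0636 of PSMB6 in MHCC97H and 0.0581 in MHCC97L. Each library thus carried mainly constitutive cutting subunits by this measure. The pair ratio of MHCC97H over MHCC97L was 0.896 (exact conditional interval 0.828 to 0.969) for PSMB8 over PSMB5, 0.931 (0.864 to 1.00) for PSMB10 over PSMB7, and 1.10 (0.898 to 1.34) for PSMB9 over PSMB6. The interval excludes equality for PSMB8 over PSMB5 alone. These pair ratios use reads as counted, with no trend removed. With the GC and length trend removed PSMB8 stood at -0.13, against -0.054 for PSMB5. PSMB9 stood at 0.043 against -0.12 for PSMB6, and PSMB10 at 0.071 against -0.13 for PSMB7, so neither PSMB9 nor PSMB10 was then lower. PSMB8-AS1, a noncoding gene that overlaps PSMB8 and PSMB9, had 157 reads in MHCC97H and 226 in MHCC97L (-0.91).

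Activators and assembly factors lay on both sides of equal expression, and none met the 1.5-fold rule. PSME1 and PSME2, interferon-inducible subunits of the PA28 cap, stood at -0.27 and -0.14. PSME3, the nuclear PA28 gamma, had 7075 reads (230 CPM) in MHCC97H and 3945 reads (168 CPM) in MHCC97L, 0.46 (0.40 to 0.51). PSME4, the PA200 activator, was at 49.1 CPM and 37.9 CPM in that order (0.37, interval 0.25 to 0.49). PSMF1, which encodes the inhibitor PI31, lay at -0.033 with an interval of -0.089 to 0.023. PSMG1 to PSMG4 encode chaperones that pair up to build the alpha ring, and POMP guides maturation of the beta ring. PSMG3 had 44.1 CPM in MHCC97H and 59.1 CPM in MHCC97L (-0.42, interval -0.53 to -0.31). Its partner PSMG4 was at -0.29 on 393 and 367 reads in the same order. PSMG1 (-0.11), its partner PSMG2 (0.23) and POMP (-0.094) were nearer equality. The assembly median was -0.11, which total counts turn to 0.058.

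**Figure D3:**
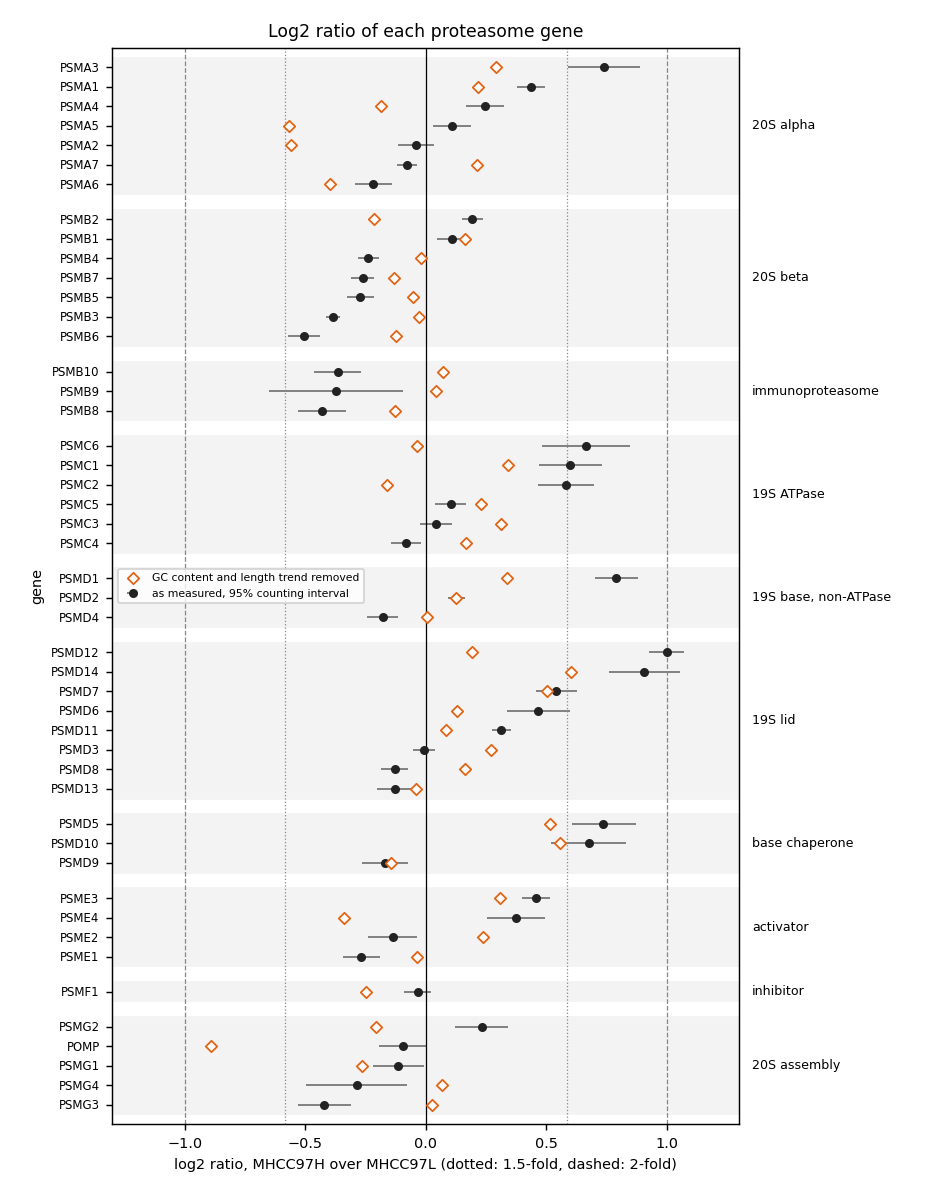
Log2 ratio of MHCC97H over MHCC97L for each kept proteasome gene, as filled points with 95% counting intervals, and with the trend of all genes with transcript GC content and length removed, as open diamonds. Dotted lines mark 1.5-fold and dashed lines 2-fold. After removal PSMD14 (0.60) alone stays beyond 1.5-fold on the higher side and POMP (-0.89) alone on the lower side.

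Base composition of the transcript moved with the ratio. Across the 47 members the Spearman correlation of the log2 ratio with GC content was -0.69, and with transcript length 0.49, where genes share the same 2 libraries. Across the 14103 kept genes with a value the correlations were -0.64 and 0.33. The 23 members under the median GC content of 48.3% had a median log2 ratio of 0.44, and the 24 at or above it had -0.17. Setting a member beside all kept genes within 1 percentage point of its GC content shows how far it stood from them. PSMD12, at 37.9% GC, stood at 1.00 where such genes had a median of 0.72. PSMD14, at 45.3% GC, stood at 0.90 against 0.31, and PSMD5, at 46.0% GC, at 0.74 against 0.27. PSMC6, at 37.8% GC, stood at 0.66 against 0.73, below the genes like it. POMP, at 34.3% GC, stood at -0.094 against 0.84 over 101 such genes.

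**Figure D4:**
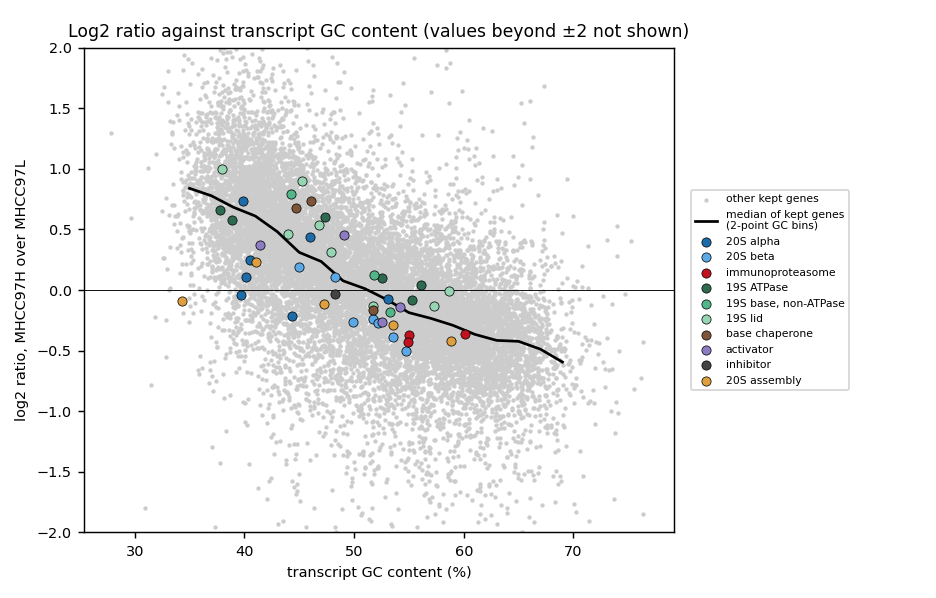
Log2 ratio of MHCC97H over MHCC97L against transcript GC content in percent, with kept genes as grey points, their median as a line and proteasome genes as coloured points. Members follow the falling line, with lid, base and chaperone genes mostly above it and POMP (-0.094 at 34.3% GC) far below it.

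Once the trend of all kept genes with GC content and length was taken off, 1 member was higher by the 1.5-fold rule (PSMD14, 0.60) and 1 lower (POMP, -0.89), against 8.35% higher and 9.49% lower over all genes with a value. No member met the 2-fold rule on either side, against 2.41% higher and 3.52% lower. PSMD10 (0.56), PSMD5 (0.52), PSMD7 (0.50), PSMC1 (0.34) and PSMD1 (0.34) kept positive values, while PSMD12 came to 0.19 and PSMC6 to -0.036. Of the 17 regulatory-particle genes 14 were above 0 after removal, with a median of 0.17, whereas 4 of the 14 core genes were, with a median of -0.089. Outside the symbol rule, ADRM1 stood at 0.22 and SEM1 at -0.24 after removal. The alpha median turned to -0.19, with PSMA5 at -0.57 and PSMA2 at -0.56. PSMA4, PSMA5 and PSMA7 changed sign, PSMA7 upward to 0.21, and the other 4 alpha genes kept theirs. The immunoproteasome median was 0.043 and the beta median -0.054, above that of the alpha genes. The part of base composition in the measured ratios was not tested.

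Upstream sequence is shown for members at either end of the range that hold a motif linked to proteasome or interferon control. RefSeq (GRCh38.p14) gave promoters for 43 of the 49 members, and the 250 bases before the start were searched on both strands. Motifs were the antioxidant response element core bound by NRF1 (TGACNNNGC), the CCAAT box (CCAAT) and the core of the interferon-stimulated response element (a pair of GAAA runs 2 bases apart), and capitals below mark every match. PSMD12 and PSMD5 are higher members, PSMD14 is the member farthest above the trend, PSMB3 is a lower beta gene and PSMB10 an immunoproteasome gene. They lie at chr17:67366578-67366827 (minus strand), chr9:120842923-120843172 (minus strand), chr2:161308175-161308424 (plus strand), chr17:38752491-38752740 (plus strand) and chr16:67936851-67937100 (minus strand), each written 5′ to 3′ on the strand of its gene.
PSMD12: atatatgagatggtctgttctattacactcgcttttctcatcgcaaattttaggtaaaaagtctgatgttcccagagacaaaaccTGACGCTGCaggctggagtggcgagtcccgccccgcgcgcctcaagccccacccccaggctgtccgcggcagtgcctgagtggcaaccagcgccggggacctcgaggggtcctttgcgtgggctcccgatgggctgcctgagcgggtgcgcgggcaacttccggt
PSMD5: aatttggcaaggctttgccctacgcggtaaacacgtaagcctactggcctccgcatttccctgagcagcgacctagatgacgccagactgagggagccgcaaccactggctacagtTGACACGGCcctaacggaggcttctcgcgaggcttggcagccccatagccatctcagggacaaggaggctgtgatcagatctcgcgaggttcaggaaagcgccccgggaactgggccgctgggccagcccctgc
PSMD14: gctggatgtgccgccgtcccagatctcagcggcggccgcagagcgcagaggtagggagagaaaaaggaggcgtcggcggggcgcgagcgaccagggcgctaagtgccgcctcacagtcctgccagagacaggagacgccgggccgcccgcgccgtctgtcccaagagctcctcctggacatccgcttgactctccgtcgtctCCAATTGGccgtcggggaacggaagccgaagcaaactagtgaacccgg
PSMB3: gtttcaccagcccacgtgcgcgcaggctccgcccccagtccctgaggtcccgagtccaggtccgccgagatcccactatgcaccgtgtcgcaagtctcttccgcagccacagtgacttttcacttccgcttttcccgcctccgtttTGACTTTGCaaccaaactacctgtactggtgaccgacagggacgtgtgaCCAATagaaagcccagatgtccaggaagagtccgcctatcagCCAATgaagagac
PSMB10: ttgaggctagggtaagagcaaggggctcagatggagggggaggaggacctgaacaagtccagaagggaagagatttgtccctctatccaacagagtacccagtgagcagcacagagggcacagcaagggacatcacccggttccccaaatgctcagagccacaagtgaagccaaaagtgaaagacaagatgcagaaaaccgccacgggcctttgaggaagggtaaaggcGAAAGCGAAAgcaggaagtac
The antioxidant response element core was present for 13 of the 43 members (30.2%), against 13.2% of 27305 genes with a promoter entry. It was found both in the higher genes PSMD12 and PSMD5 and in the lower genes PSMB3 and PSME1. Kept members with the match had a median log2 ratio of -0.0078 (13 genes), and those without it 0.12 (28 genes). A CCAAT box was present for 19 members (44.2%, against 37.0% of genes), with medians of 0.11 with it and -0.033 without it. In PSMD14 2 CCAAT matches on opposite strands overlap. The interferon-stimulated core was present for 5 members, PSMA4, PSMB4, PSMB10, PSME2 and PSMG4 (11.6%, against 3.71% of genes). Their median log2 ratio was -0.24, against 0.12 for the 36 kept members without it, or 0.068 and 0.062 with the trend removed. A match describes letters in a window and is not evidence of binding.

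Among 13 genes of the NRF1 route to proteasome transcription, the median was -0.067. By the 1.5-fold rule 5 were higher and 0 lower, against 19.3% higher and 13.8% lower over all kept genes. NFE2L1, which encodes NRF1 itself, had 243 CPM in MHCC97H and 259 CPM in MHCC97L (-0.092). Its relatives NFE2L2 (1.09, interval 0.96 to 1.23) and NFE2L3 (0.79) were higher, and NFE2L2 encodes NRF2. SEL1L (0.84), a subunit of the ubiquitin ligase complex that removes proteins from the endoplasmic reticulum, and NGLY1 (0.82), which deglycosylates NRF1, were higher too. DDI2 (0.73), the protease that activates NRF1, had 207 reads in MHCC97H and 95 in MHCC97L. With the trend removed none of the 13 met the 1.5-fold rule, NFE2L2 being at 0.44.

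Proteasome-associated factors bind the particle or carry substrates to it. By the 1.5-fold rule 5 of 17 were higher and 0 lower, beside 19.3% and 13.8% of all kept genes, at a median of 0.089. Both deubiquitinases that dock on the 19S particle were higher by the 2-fold rule, which 7.06% of all kept genes met on that side. UCHL5 had 60.4 CPM in MHCC97H and 25.7 CPM in MHCC97L (1.23, interval 1.10 to 1.37), and USP14 had 36.6 CPM and 18.1 CPM in that order (1.01, interval 0.85 to 1.18). The scaffold ECPAS, listed under its older name KIAA0368, stood at 0.74, and the shuttle factors UBQLN1 and RAD23B at 0.65 and 0.61. ADRM1, the ubiquitin receptor that anchors UCHL5, was at -0.27, and SEM1, the smallest lid subunit, at -0.24. With the trend removed UCHL5 (0.66) alone was higher by the 1.5-fold rule and TXNL1 (-0.63), a thioredoxin bound to the particle, alone was lower. As measured TXNL1 lay near equal expression, at 0.089 (interval -0.027 to 0.21). USP14 then stood at 0.49.

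Ubiquitin is made as a fusion or a chain and is then activated by an E1 enzyme before it marks a substrate. RPS27A, which encodes ubiquitin fused to a ribosomal protein, had 587 CPM in MHCC97H and 831 CPM in MHCC97L, a log2 ratio of -0.50 (interval -0.53 to -0.47). The polyubiquitin gene UBB had 708 CPM in MHCC97H and 826 CPM in MHCC97L (-0.22). Neither met the 1.5-fold rule. The ubiquitin-activating enzyme gene UBA1 was at 0.023, and its alternative UBA6 at 1.13 (interval 0.88 to 1.39), or 0.22 with the trend removed.

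Class I presentation takes up the peptides that the proteasome makes. TAP1, which pumps these peptides into the endoplasmic reticulum, had 63.7 CPM in MHCC97H and 99.4 CPM in MHCC97L (-0.64), and was lower by the 1.5-fold rule. HLA-C (-0.65) and HLA-B (-0.59) were lower by that rule too, and their values are uncertain because class I genes share sequence. The peptidase gene ERAP2 (0.73) was higher, with 31.4 CPM in MHCC97H and 18.9 CPM in MHCC97L. The transcription factor gene IRF1 stood at -0.26. With the trend removed TAP1 stood at -0.39, HLA-C at -0.27, HLA-B at 0.00064 and ERAP2 at 0.051, none of them past 1.5-fold. B2M, the light chain of class I molecules, was then lower by that rule at -0.81. As measured B2M stood at -0.31 (511 CPM in MHCC97H, 633 CPM in MHCC97L) and did not meet the 1.5-fold rule.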

How the data were processed

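Poly(A)-selected RNA was sequenced as 1 library each for MHCC97H and MHCC97L, and the deposited table holds raw read counts per gene without normalisation. The submitters' processing notes name HTSeq 0.11.2, HISAT2 2.1.0 and bcl2fastq, and hg19 as the build. Which annotation and strand setting were used is not given. Table columns were assigned to the lines by the labels' descriptions.

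Genes of at least 1 CPM of total counts in at least 1 library were kept. TMM factors were computed on them in edgeR 4.0.16 (R 4.3.3), at 1.06 for MHCC97H and 0.942 for MHCC97L. Log2 ratios used a prior count of 0.5. Each interval is a 95% Clopper-Pearson interval on the share of a gene's reads that came from MHCC97H, computed with scipy 1.17.1. A gene met the 2-fold or 1.5-fold rule when its ratio reached that size and its interval excluded equal expression. With 1 library per line there is no test.

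Transcript GC content and length are medians over protein-coding transcripts of GENCODE release 29, found for 96.7% of kept genes by symbol or RefSeq synonym. Lowess (statsmodels 0.14.6, span 0.2) removed the trend with GC content, then with log2 length. These references are on another build than the counts, so coordinates are given for RefSeq promoters alone. PSMA7, PSMB1, PSMB6, PSMB7, PSMD4 and PSMG3 had no promoter entry.

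The rule for named genes took every member past 1.5-fold, the highest and lowest of each class, the immunoproteasome genes with their partners, members under the filter, and up to 5 genes per direction past 1.5-fold from each further list. Other genes were named after their values were seen. Some genes of the further lists are not reported here. Members, lists and alternatives were chosen with earlier results of these data known. Alternatives were total counts or DESeq2 1.42.0 size factors, other filters and prior counts, and removal of the trend. Log2 ratios, their intervals, trend removal and the 1.5-fold rule were first tested on simulated counts, and the other calculations were not. With a GC and length trend planted and left in, 20.7% of unchanged genes passed the 1.5-fold rule. Their intervals then covered the true value for 31.2%. With the trend removed these shares were 0.633% and 93.8%. The planted trend was the one fitted to these data, it was removed by the same method, and counting error was the only other scatter. These shares therefore cannot show how well the trend was removed from the measured ratios.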

Additional observations from a re-analysis of the deposited data

How the results depend on the processing

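No paired analysis was possible because each line has 1 library. Scaling by DESeq2 factors, no filter, a filter at 5 CPM, a prior count of 2, and leaving out 11 members that share at least 10% of their exon bases with another gene moved no count of members by over 1.5 times. The last of these was chosen after seeing the data. PSMC1 missed the 1.5-fold rule with DESeq2 factors (0.57). Total counts raise every log2 ratio by 0.17. They gave 2 members higher at 2-fold, against 11.4% of all kept genes, and 13 at 1.5-fold, against 26.9%. The immunoproteasome median was then -0.20 and PSMF1 stood at 0.14. Removing the GC and length trend left 1 member higher and 1 lower at 1.5-fold, with an immunoproteasome median of 0.043 and PSMF1 at -0.25, and PSMC6 reversed to -0.036. The cause was not tested. As a share of protein-coding reads without mitochondrially encoded genes, members took 0.753% in MHCC97H and 0.659% in MHCC97L. Woolf intervals excluded equality for the same pair ratio. Depth limits PSMB9 most, at 217 reads in MHCC97H and 215 in MHCC97L.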
